A study of Mus musculus with 9 samples.

Results

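Alternative activation is the state that macrophages take on under interleukin-4 (IL-4) and interleukin-13 (IL-13), and the genes described here are 8 mouse markers of it: Il4ra, Tgm2, Retnla, Chil3, Mrc1, Clec10a, Mgl2 and Clec7a. They were taken by symbol from a table of raw RNA-seq counts, 8 of 23413 genes, and Chil3 stands there under its older symbol Chi3l3. All 8 passed the filter on low counts and were among the 11393 genes tested. The libraries were made from F4/80+CD11b+ macrophages sorted from the liver of C57BL/6 male mice, labelled as Kupffer cells (KCs), the resident macrophages of the liver. The study's methods add that the sort kept cells low in Gr-1, a gate that leaves out most neutrophils, which are high in it. The 2 NC libraries came from mice kept on a normal chow with 10 kcal% fat, and the other 7 from mice kept on a high-fat diet (HFD) with 60 kcal% fat, in all cases for 8 weeks from 5 weeks of age. Of the HFD mice, 3 received vehicle and 4 received DPI (diphenyleneiodonium, a compound known as an inhibitor of flavoenzymes and tested here as an agonist of the receptor GPR3). The study's methods give the treatment as 2 mg/kg DPI or vehicle injected into the mice every 5 days from week 3 of the diet, whereas the sample labels describe purified cells exposed to 500 nM DPI or DMSO for 24 h. These accounts cannot be reconciled from the labels, and the groups were set by the diet and treatment in the sample titles. No treatment is given for the NC mice.

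In this pathway IL-4 binds the chain encoded by Il4ra, which pairs with the common gamma chain or with the IL-13 receptor chain. Janus kinases on these chains then phosphorylate STAT6, which enters the nucleus and binds palindromes of the type TTC-spacer-GAA near its target genes. Among the known targets in mouse macrophages are Retnla and Chil3, which encode secreted proteins, and the surface lectins Mrc1, Clec10a and Mgl2. Tgm2 encodes an enzyme that cross-links proteins and marks alternatively activated macrophages in mouse and human, and Clec7a encodes dectin-1, a receptor for fungal beta-glucan.

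Library totals lay between 3534325 and 15585775 counts, with a median of 4918629, and DPI replicate 1 was the deepest. The ribosomal RNA precursor Rn45s took 27.0% to 44.5% of each library's counts. A count of 3, taken as the smallest that can be told from none, corresponded to between 0.184 and 1.02 CPM (counts scaled to a common library total by edgeR's TMM factors) and covers counting error only. The NC libraries agreed less with each other (Spearman rank correlation across genes 0.740) than the vehicle libraries did among themselves (0.867 to 0.880). The labelled cell type was only partly borne out by its markers. Lyz2 and Csf1r, which most macrophages express, were abundant in every library, and so was Ly6c2, a gene of inflammatory monocytes, at 441 to 1492 CPM. Of 10 macrophage genes, all tested, Emr1 (F4/80, a marker of the sort) and C1qa passed the study's threshold for HFD vehicle against NC, both lower, and C1qa and C1qc for DPI against vehicle, both higher. Emr1 had 139 and 115 CPM in NC and 55.01 to 67.3 CPM with vehicle. Of 8 monocyte genes, all tested, Ly6c2 passed higher and Ccr2 lower for HFD vehicle against NC. The part of these differences in the values of the members was not tested. The KC genes Clec4f and Timd4 were at 0 counts in NC replicate 1 and in vehicle replicates 2 and 3, and Marco was at 0 in all libraries but 1. The summed level of 10 KC genes was nonetheless 233 to 973 CPM, most of it Id3, at 136 to 918 CPM, which other cells express too, and Spic and Nr1h3 had counts in every library. Of these 10 genes 5 were tested, and Id3 passed the study's threshold, higher, for HFD vehicle against NC and for DPI against NC, and Spic, lower, for DPI against vehicle.

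The sequences that bear on how the members can be read are those that let reads be shared between genes. Of the 1586 windows of 50 bases in the longest coding transcript of Mgl2 (GENCODE M21, GRCm38, the assembly of mm10), 16.5% also occurred in transcripts of another gene, nearly all in Clec10a. For Chil3 it was 29.4% of 1490 windows, with 275 windows shared with Chil4 and 217 with Gm6522. For Tgm2 it was 18.8% of 3547 windows, mostly shared with the overlapping gene Gm20412. Mrc1, Retnla, Il4ra and Clec7a shared no window. The longest coding stretch within 1 exon that Clec10a (chr11:70169926-70170077, exon 7) and Mgl2 (chr11:70136441-70136592, exon 8) have in common is 152 bases, on the plus strand.
Clec10a and Mgl2: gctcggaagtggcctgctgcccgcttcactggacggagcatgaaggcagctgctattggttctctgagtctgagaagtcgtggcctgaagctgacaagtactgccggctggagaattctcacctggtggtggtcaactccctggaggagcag
Between Chil3 (chr3:106160371-106160486) and Chil4 (chr3:106210476-106210591), both on the minus strand, the longest such stretch is 116 bases of exon 5 of each gene.
Chil3 and Chil4: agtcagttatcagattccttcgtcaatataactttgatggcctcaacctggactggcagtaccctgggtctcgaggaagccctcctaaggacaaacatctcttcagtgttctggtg
A read from within either stretch fits both genes, so the counts of Mgl2, Clec10a and Chil3 rest on how the authors' counting divided such reads. Chil4, listed as Chi3l4, had at most 1.02 CPM in any library, so few counts were credited to this partner of Chil3. Counts of Gm6522 were not examined.

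The promoter table of RefSeq (GRCm38.p6, 250 bases before to 50 bases after each start) held 6 of the 8 members: Mrc1, Chil3, Clec7a, Il4ra, Mgl2 and Retnla. It was searched for TTCNNNNGAA, the spacing that STAT6 prefers, and for TTCNNNGAA, the spacing common to other STAT proteins. Each is its own reverse complement in its fixed letters, so a search of 1 strand finds matches on both, and the 2 patterns cannot share a match. Retnla and Clec7a held the first, Chil3 held the second, and Mrc1, Il4ra and Mgl2 held neither. Of the 27025 genes in the table, 8.01% held the first pattern in at least 1 promoter, 9.55% the second and 16.6% either. The 3 stretches with a match are given as 100 bases upstream of the start, with the match in capitals. They lie at chr16:48842419-48842518 on the plus strand for Retnla, chr6:129472856-129472955 on the minus strand for Clec7a and chr3:106167682-106167781 on the minus strand for Chil3.
Retnla: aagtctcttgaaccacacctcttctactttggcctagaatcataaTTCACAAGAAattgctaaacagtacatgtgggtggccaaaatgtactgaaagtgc
Clec7a: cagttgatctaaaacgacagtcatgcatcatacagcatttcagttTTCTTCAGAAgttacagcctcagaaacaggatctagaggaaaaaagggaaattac
Chil3: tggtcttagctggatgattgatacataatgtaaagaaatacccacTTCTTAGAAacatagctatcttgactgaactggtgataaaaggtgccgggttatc
The matches begin 145 bases upstream of the start in Retnla, 131 in Clec7a and 172 in Chil3. They describe these letters only, and as the next paragraphs show, the 3 genes did not share a pattern across the groups.

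At the study's threshold, an unadjusted p under 0.05 with at least a 2-fold difference, 3 of the 8 members passed for HFD vehicle against NC (Mgl2 and Tgm2 higher, Retnla lower), where 11.7% of all genes tested passed, 7.03% higher and 4.63% lower. For DPI against vehicle 0 of 8 passed, where 2.84% of all genes did, 1.5% higher and 1.34% lower. Between DPI and NC 1 of 8 passed (Mgl2, higher), where 9.29% of all genes did, 6.24% higher and 3.05% lower. This threshold carries no adjustment for the number of genes tested, so false calls are to be reckoned among the genes it passes. No member had an adjusted p under 0.05 in any of these comparisons (the quasi-likelihood test of edgeR, Benjamini-Hochberg adjustment), where 0.0614%, 0% and 0.00878% of all genes did. At an unadjusted p under 0.05 alone 4 members passed for HFD vehicle against NC, 0 for DPI against vehicle and 1 for DPI against NC, where 13%, 4.13% and 10.7% of all genes did. The groups did not overlap for 3, 1 and 2 members in these comparisons, where they did not for 27.5%, 5.85% and 20.2% of all genes. With DESeq2, and with edgeR's likelihood ratio test, the adjusted count was 1 for DPI against NC, and it was 0 in the other comparisons. The labels number the mice but give no litter or date, and p measures the spread between these libraries. HFD vehicle against NC and DPI against vehicle share the vehicle libraries, and DPI against NC shares libraries with each of them, so they are not independent.

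**Figure D1:**
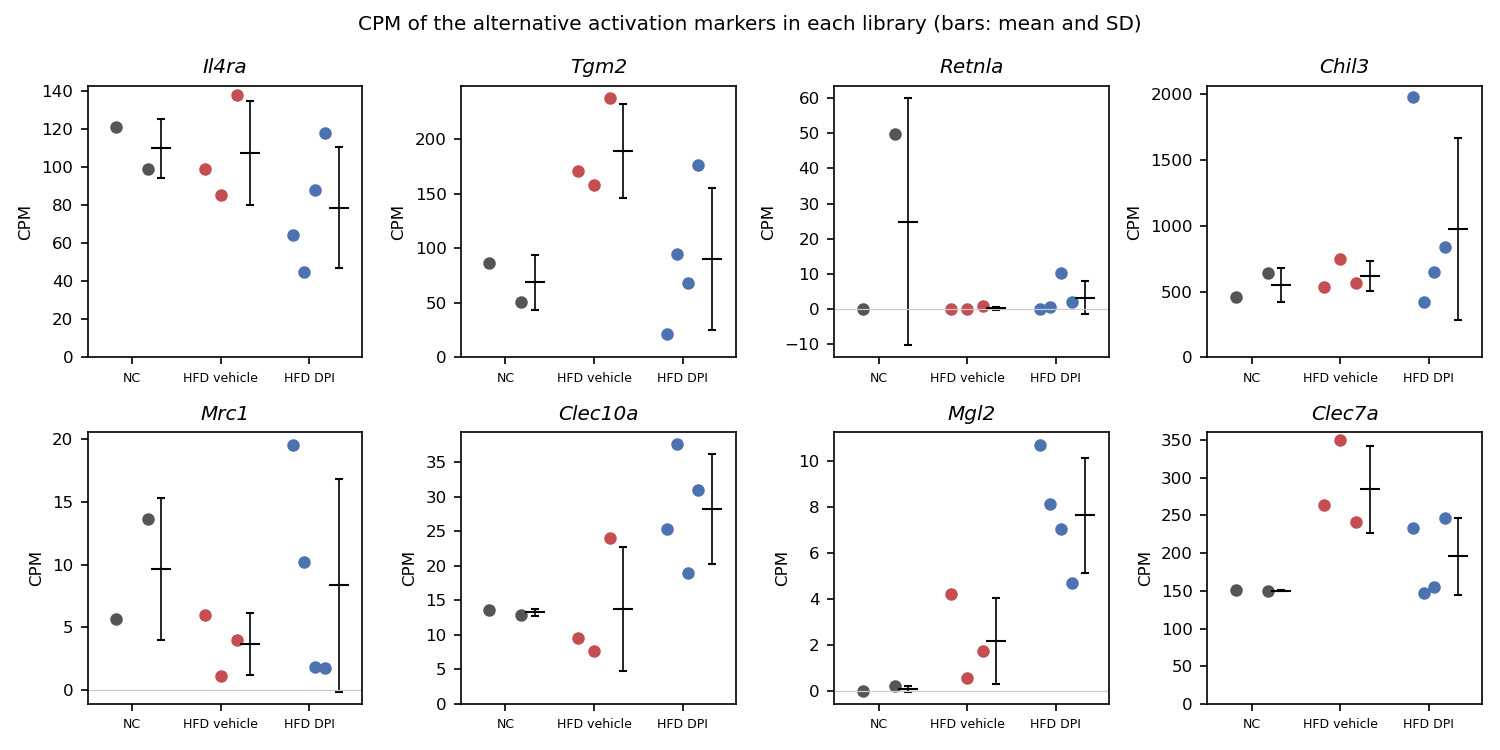
CPM of each of the 8 markers (y axis, linear, a different scale in each panel) in the 2 NC, 3 HFD vehicle and 4 HFD DPI libraries (points, replicate 1 on the left), with the mean and SD of each group as a bar. Mgl2 was at 4.69 CPM or more in every DPI library and at 4.22 CPM or less in every other library, while the groups of most other markers overlapped.

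Il4ra (chr7:125552120-125579474, plus strand), the receptor chain that starts the pathway, was expressed in every library and was not called in any comparison. It had 121 and 98.8 CPM in the NC libraries, 99.2, 85.2 and 138 CPM with vehicle and 64.4, 44.8, 87.8 and 118 CPM with DPI. The vehicle libraries surrounded the NC values, and 2 of the 4 DPI libraries lay below every other library. The log2 fold change was -0.03 ± 0.40 (SE) for HFD vehicle against NC and -0.44 ± 0.33 for DPI against vehicle (unadjusted p = 0.205 by the quasi-likelihood test of edgeR, adjusted p = 0.999).

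Of the ligands, Il4 had 49 counts in NC replicate 2 (9.15 CPM), 35 in DPI replicate 4 (3.57 CPM) and at most 9 in any other library, and Il13 had at most 0.374 CPM. Of 22 genes of the IL-4 receptor pathway, all measured and 20 tested, 2 passed the study's threshold for HFD vehicle against NC, both higher. They were Socs1, a feedback inhibitor of JAK signalling that STATs induce (log2 fold change 2.04 ± 0.53, unadjusted p = 0.00201, adjusted p = 0.166), and Il2rg, the common gamma chain that pairs with IL4RA (1.02 ± 0.34, unadjusted p = 0.0101, adjusted p = 0.273). Socs1 had 7.29 and 7.28 CPM in NC, 27.7, 22.3 and 40.1 CPM with vehicle and 13.8, 20.7, 18.2 and 12.96 CPM with DPI, so that all HFD libraries lay above NC and every DPI library below every vehicle library. Between DPI and NC Socs1 alone passed (1.16 ± 0.50, unadjusted p = 0.0355, adjusted p = 0.445). Between DPI and vehicle 2 of the list passed, both lower: Ppargc1b, a coactivator that IL-4 induces in macrophages (-1.998 ± 0.86, unadjusted p = 0.0358), and Egr2, a transcription factor that IL-4 induces (-2.01 ± 0.88, unadjusted p = 0.0398), each with an adjusted p of 0.999. Stat6 itself had 52.9 to 130 CPM over the 9 libraries and a log2 fold change of -0.22 ± 0.37 for HFD vehicle against NC and of -0.18 ± 0.31 for DPI against vehicle. The median log2 fold change of the tested genes of the list was 0.44, -0.39 and -0.06 for HFD vehicle against NC, DPI against vehicle and DPI against NC, beside 0.03, 0.04 and 0.04 over all genes tested.

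Of 16 genes of arginine and polyamine metabolism, 15 were tested. For HFD vehicle against NC 1 passed the study's threshold, Ass1, which rebuilds arginine from citrulline (log2 fold change 1.18 ± 0.48, unadjusted p = 0.0282, adjusted p = 0.338). Between DPI and NC 1 passed, Odc1, the enzyme that starts polyamine synthesis from ornithine (-1.56 ± 0.54, unadjusted p = 0.0126, adjusted p = 0.367), and for DPI against vehicle 0 passed. Odc1 had 51.0 and 12.7 CPM in NC, 17.98, 18.3 and 23.3 CPM with vehicle and 7.60, 9.85, 11.7 and 14.1 CPM with DPI. Every DPI library lay below every vehicle library, but NC replicate 2 lay among the DPI libraries. Nos2, which makes nitric oxide from arginine in classically activated macrophages, was at 3.46 CPM in NC replicate 1 and at or under 0.306 CPM elsewhere, and was filtered out.

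Tgm2 (chr2:158116402-158146436, minus strand), the protein cross-linking enzyme, was higher in every vehicle library than in either NC library. It had 86.7 and 50.8 CPM in NC, 171, 158 and 238 CPM with vehicle and 21.3, 94.4, 68.3 and 176 CPM with DPI. The log2 fold change for HFD vehicle against NC was 1.46 ± 0.63, a 2.75-fold difference (unadjusted p = 0.0384, adjusted p = 0.362). It was no longer past the study's threshold without NC replicate 2 (1.15, unadjusted p = 0.159), without vehicle replicate 3 (1.31, unadjusted p = 0.0876), with library size scaling (1.13, unadjusted p = 0.0931) or with the endothelial or neutrophil marker sum as a covariate (0.19 and 1.17, unadjusted p = 0.853 and 0.0822). With DPI 3 of the 4 libraries lay below the vehicle group and DPI replicate 4 lay within it. Between DPI and vehicle the log2 fold change was -1.07 ± 0.50 (unadjusted p = 0.0520, adjusted p = 0.999), just outside the study's threshold, and it was -1.63 and past that threshold without DPI replicate 4. It ranged from -1.63 to -0.74 with 1 library left out, and the unadjusted p was under 0.05 in 9 of 19 alternative fits. Reads from Tgm2 and from Gm20412, which overlaps it, may not have been told apart, and Gm20412 was not used here. Of 7 other genes of the transglutaminase family 3 were tested and 0 passed in any comparison. F13a1, the clotting factor subunit that is itself an IL-4 target, was abundant, at 465 and 427 CPM in NC, 222, 184 and 256 CPM with vehicle and 781, 193, 195 and 173 CPM with DPI, and its high DPI library was replicate 1, the one in which Tgm2 was lowest.

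Retnla (chr16:48842551-48844461, plus strand), which encodes the secreted resistin-like protein RELM-alpha, owed its difference to 1 library. Its counts were 0 and 266 in the NC libraries, 0, 0 and 3 under vehicle and 0, 2, 55 and 19 under DPI. NC replicate 2 stood far above all others, NC replicate 1 was at 0, and of the DPI libraries only replicates 3 and 4 exceeded the floor. Over summed counts, vehicle came to 0.00870 of NC (3 against 266 counts, exact 95% interval 0.00178 to 0.0257) and DPI to 10.3 times vehicle (76 against 3 counts, 3.41 to 51.2), intervals that leave out the spread between mice. The fitted test for HFD vehicle against NC gave an unadjusted p of 0.0129 (quasi-likelihood test of edgeR, adjusted p = 0.287). Without NC replicate 2 the fitted log2 fold change turned from -6.66 to 3.77 (unadjusted p = 0.377), so the call rests on that library, and with DESeq2 the unadjusted p was 0.0592. Between DPI and vehicle the unadjusted p was 0.0978 (adjusted p = 0.999), and 0.0484 without DPI replicate 1. It was under 0.05 in 4 of 17 alternative fits. The fitted log2 fold change for DPI against vehicle, 3.71, ranged from 1.85 to 7.47 with 1 library left out.

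Retnlg, the neighbour and relative of Retnla that neutrophils express, followed another pattern, at 99.4 and 359 CPM in NC, 259, 333 and 421 CPM with vehicle and 24.1, 54.0, 397 and 362 CPM with DPI. The summed level of 10 other measured neutrophil markers was 1381 and 3050 CPM in NC, 2348, 3136 and 3632 CPM with vehicle and 1115, 912, 3558 and 5420 CPM with DPI, although the sort was for cells low in Gr-1. Of all 11, Mmp8 and Camp passed the study's threshold for HFD vehicle against NC, both lower, and Camp, Ltf and Ngp, which encode granule proteins, for DPI against vehicle, all higher, and 0 passed for DPI against NC. The DPI libraries in which Retnla passed the floor, replicates 3 and 4, were those with the higher neutrophil sums, and so was NC replicate 2 in its group. The vehicle libraries, with sums of 2348, 3136 and 3632 CPM, had Retnla counts of 0, 0 and 3. The part of such cells in the result was not tested.

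Chil3 (chr3:106147554-106167564, minus strand), which encodes the chitinase-like protein Ym1, was the most abundant of the 8 members per kb of exon in every library. It had 458 and 644 CPM in NC, 539, 748 and 566 CPM with vehicle and 1979, 422, 650.5 and 843 CPM with DPI. DPI replicate 1 stood above all others and DPI replicate 2 was the lowest of all. The log2 fold change was 0.17 ± 0.49 for HFD vehicle against NC and 0.66 ± 0.42 for DPI against vehicle (unadjusted p = 0.139, adjusted p = 0.999), and without DPI replicate 1 the latter was 0.05. Without DPI replicate 2 the DPI value against NC was 1.11 and past the study's threshold (unadjusted p = 0.0249). Of the 8 secreted relatives of Chil3 and Retnla, 3 were tested and 0 passed in any comparison.

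Mrc1 (chr2:14229392-14332057, plus strand), the mannose receptor CD206, was low and divided the libraries within groups. It had 5.65 and 13.6 CPM in NC, 5.99, 1.09 and 3.96 CPM with vehicle and 19.6, 10.2, 1.86 and 1.73 CPM with DPI. DPI replicates 1 and 2 lay above or within the range of NC, and DPI replicates 3 and 4 within that of vehicle. The log2 fold change was -1.39 ± 1.09 for HFD vehicle against NC (unadjusted p = 0.223, adjusted p = 0.625) and 1.19 ± 0.95 for DPI against vehicle (unadjusted p = 0.234, adjusted p = 0.999). With 1 library left out the former ranged from -1.90, without vehicle replicate 1, to -0.60, without NC replicate 2, and the latter from 0.29, without DPI replicate 1, to 1.74, without vehicle replicate 1.

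Mrc1 is also a gene of liver sinusoidal endothelial cells, and markers of these cells also divided the libraries. Their summed level over 10 measured genes was 222 and 355 CPM in NC, 25.7, 19.9 and 33.9 CPM with vehicle and 252, 131, 16.1 and 42.8 CPM with DPI. NC replicate 1, with the third highest of these sums, had less Mrc1 (5.65 CPM) than vehicle replicate 1 (5.99 CPM). Of the 10 genes, 7 passed the study's threshold for HFD vehicle against NC, 6 lower and Pecam1, which other cells also express, higher. For DPI against vehicle 4 passed, all higher, and for DPI against NC Pecam1 alone, higher. Clec4g, an endothelial lectin, had 71.0 and 93.8 CPM in NC, 0, 0 and 1.73 CPM with vehicle and 57.4, 32.3, 0 and 5.31 CPM with DPI. With the endothelial sum as a covariate, a fit added after seeing the data, the log2 fold change of Mrc1 turned to 1.99 ± 1.36 for HFD vehicle against NC and to -0.79 ± 0.86 for DPI against vehicle, neither with a p under 0.05. The part of endothelial cells in the level of Mrc1 was not tested directly. In sorted cells of this kind, fewer cells of a type and less RNA per cell cannot be told apart.

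**Figure D2:**
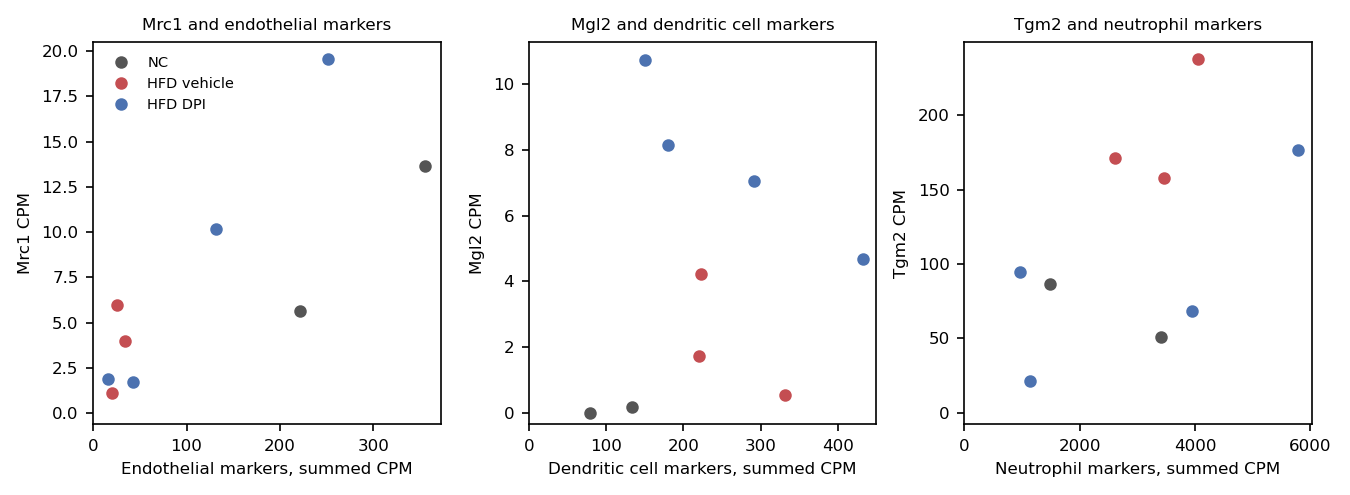
CPM of Mrc1, Mgl2 and Tgm2 (y axes) against the summed CPM of endothelial, dendritic cell and neutrophil markers (x axes) in the 9 libraries, each point a library coloured by group. The 4 libraries with the highest endothelial sums, 131 to 355 CPM, included the 3 with the highest Mrc1, while the highest Mgl2 came at a low dendritic cell sum of 151 CPM.

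Clec10a (chr11:70156197-70170834, plus strand) encodes MGL1 (CD301a), a lectin that binds galactose and N-acetylgalactosamine. It had 13.7 and 12.9 CPM in NC, 9.54, 7.62 and 24.0 CPM with vehicle and 25.4, 37.7, 18.9 and 31.0 CPM with DPI. Every DPI library lay above both NC libraries and above vehicle replicates 1 and 2, and vehicle replicate 3 lay among the DPI libraries. The log2 fold change was 0.04 ± 0.57 for HFD vehicle against NC and 1.04 ± 0.49 for DPI against vehicle, a 2.06-fold difference (unadjusted p = 0.0520, adjusted p = 0.999). With 1 library left out the latter ranged from 0.75 to 1.71. It was past the study's threshold at 1.71 without vehicle replicate 3 and at 1.19 without DPI replicate 3. The unadjusted p was under 0.05 in 8 of 19 alternative fits. Against NC the DPI value was 1.09 ± 0.57 (unadjusted p = 0.0761, adjusted p = 0.512).

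Mgl2 (chr11:70130329-70137550, plus strand) encodes MGL2 (CD301b), the close relative of MGL1 that IL-4 induces and that a subset of dendritic cells also expresses. Its counts were 0 and 1 in the NC libraries, 19, 3 and 7 under vehicle and 175, 24, 38 and 46 under DPI. In CPM these came to 0 and 0.187 in the NC libraries, 4.22, 0.544 and 1.73 under vehicle and 10.7, 8.15, 7.05 and 4.69 under DPI, and no group overlapped another. Mgl2 was thus ordered NC, vehicle, DPI by its values. Vehicle replicate 2, with 3 counts, stood at the floor and the NC libraries, with 0 and 1, under it, so the order of these libraries lies within counting error. Mgl2 was the 1 member of 8 whose DPI and vehicle libraries did not overlap, where 5.85% of all genes tested did not.

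Over summed counts, Mgl2 with vehicle came to 22.4 times NC (29 against 1 count, exact 95% interval 3.71 to 914) and with DPI to 89.1 times NC (283 against 1 count, 15.9 to 3531), intervals that cover counting error only. The fitted test passed the study's threshold for HFD vehicle against NC (unadjusted p = 0.0141, adjusted p = 0.289) and for DPI against NC (unadjusted p = 0.00179, adjusted p = 0.206). Between DPI and vehicle the log2 fold change was 1.82 ± 0.98, a 3.53-fold difference that did not pass (unadjusted p = 0.0856, adjusted p = 0.999), and without vehicle replicate 1 it was 2.75 and passed (unadjusted p = 0.0389). It ranged from 1.36 to 2.75 with 1 library left out, and the unadjusted p was under 0.05 in 2 of 18 alternative fits. The unadjusted p for DPI against NC stayed under 0.05 in all 17 alternative fits in which it was tested. Without NC replicate 1 the unadjusted p for HFD vehicle against NC was 0.0623.

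The dendritic cell markers, 10 genes in all, had a summed level of 79.4 and 133 CPM in NC, 223, 332 and 220 CPM with vehicle and 151, 180, 292 and 432 CPM with DPI. Mgl2 was highest in DPI replicate 1, where this sum was the lowest of the HFD libraries. Of the 10 genes 9 were tested, Ccr7 alone passed the study's threshold for HFD vehicle against NC (higher), 0 passed for DPI against vehicle, and Cd209a and Dpp4 passed for DPI against NC (both higher). The median log2 fold change of the list was -0.17, 0.29 and 0.06 in these comparisons. Cd209a, a lectin of monocyte-derived dendritic cells, had 26.0 and 19.2 CPM in NC, 38.0, 18.9 and 38.2 CPM with vehicle and 63.9, 30.6, 92.4 and 63.2 CPM with DPI, and it passed the study's threshold for DPI against NC (log2 fold change 1.47 ± 0.48, unadjusted p = 0.00902, adjusted p = 0.347). Whether such cells took part in the values of Mgl2 and Clec10a was not tested.

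Clec7a (chr6:129461591-129472779, minus strand) had 151 and 150 CPM in NC, 263, 350 and 241 CPM with vehicle and 233, 147, 155 and 246 CPM with DPI. All vehicle libraries lay above both NC libraries, and the DPI libraries fell into a pair at the NC level, replicates 2 and 3, and a pair close to vehicle, replicates 1 and 4. The log2 fold change for HFD vehicle against NC was 0.92 ± 0.33, a 1.90-fold difference (unadjusted p = 0.0151, adjusted p = 0.292), which missed the study's 2-fold limit by a little. It ranged from 0.64 to 1.08 over 18 alternatives, and the unadjusted p was under 0.05 in 13 of the 17 that gave one. Between DPI and vehicle the log2 fold change was -0.54 ± 0.27 (unadjusted p = 0.0642, adjusted p = 0.999), with an unadjusted p of 0.0482 without DPI replicate 1 and of 0.0295 without DPI replicate 4. It ranged from -0.67 to -0.36 with 1 library left out, and the unadjusted p was under 0.05 in 4 of 19 alternative fits. Of 10 genes that carry the dectin-1 signal 9 were tested, 0 passed for HFD vehicle against NC or for DPI against vehicle, and for DPI against NC 1 passed, Plcg2, a phospholipase below SYK (-1.13 ± 0.37, unadjusted p = 0.00953, adjusted p = 0.350).

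**Figure D3:**
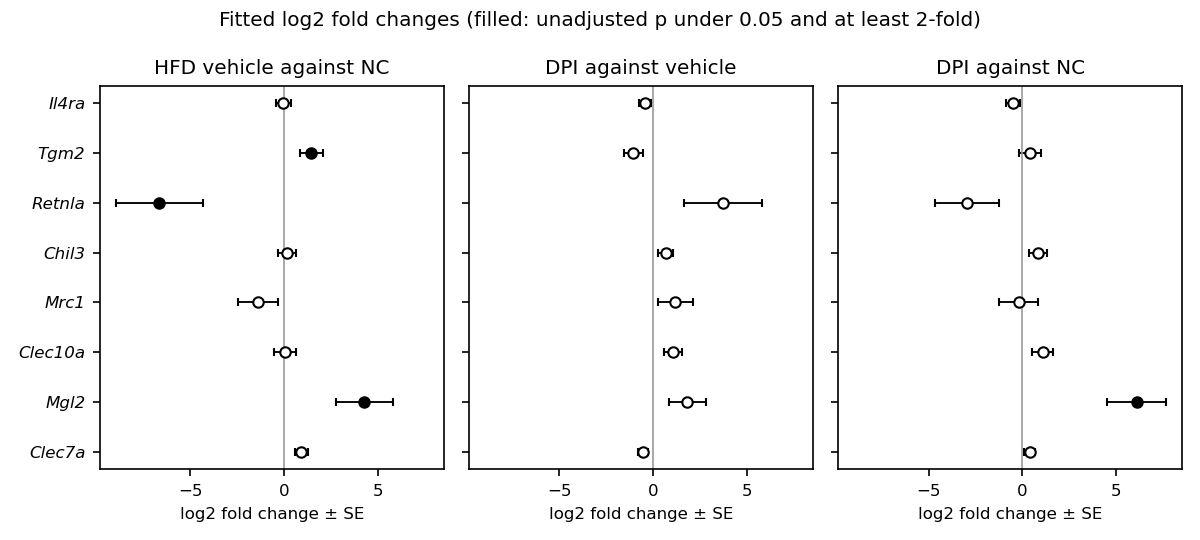
Fitted log2 fold change (x axis) with its standard error for each of the 8 markers in the 3 comparisons, filled where the unadjusted p was under 0.05 and the difference at least 2-fold. For HFD vehicle against NC the filled points are Mgl2 and Tgm2 to the right and Retnla to the left, for DPI against vehicle there are 0, and for DPI against NC Mgl2 is filled; the values of Retnla and Mgl2 against groups at the floor depend on the prior count of the fit.

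Of 28 other lectins on a list for myeloid cells, which also holds the endothelial lectin Clec4g, 19 were tested, and for HFD vehicle against NC 4 passed the study's threshold. Clec5a and Clec4e, receptors of inflammatory myeloid cells, were higher (log2 fold changes 1.499 ± 0.61 and 1.36 ± 0.59), and Clec4g and Clec1b were lower. Between DPI and vehicle 2 passed, Clec4g, the only one higher, and Clec4n, which encodes dectin-2, lower (-1.003 ± 0.36, unadjusted p = 0.0153, adjusted p = 0.999), and for DPI against NC Cd209a alone passed. Clec4e had 127 and 143 CPM in NC, 271, 405 and 362 CPM with vehicle and 132, 49.9, 229 and 364 CPM with DPI. The median log2 fold change of the tested lectins was -0.17, 0.23 and -0.24 for HFD vehicle against NC, DPI against vehicle and DPI against NC.

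Of 24 further targets of IL-4 in macrophages 19 were tested, and 4 passed for HFD vehicle against NC, 2 in each direction. Ccl22, a chemokine that attracts regulatory T cells, had 0.546 and 0.187 CPM in NC, 30.9, 7.80 and 45.6 CPM with vehicle and 6.25, 9.51, 31.9 and 12.96 CPM with DPI. It was higher in every HFD library than in NC, where it was at the floor (HFD vehicle against NC unadjusted p = 0.000116, adjusted p = 0.0631, and DPI against NC unadjusted p = 0.000332, adjusted p = 0.109). Cd36, the fatty acid translocase, was higher with HFD vehicle than in NC (1.75 ± 0.47, unadjusted p = 0.00229, adjusted p = 0.175) and lower with DPI than with vehicle (-1.04 ± 0.36, unadjusted p = 0.0125, adjusted p = 0.999). It had 27.0 and 28.6 CPM in NC, 111, 88.0 and 81.5 CPM with vehicle and 22.5, 37.7, 47.1 and 73.6 CPM with DPI, so the DPI and vehicle libraries did not overlap, while DPI and NC did (0.70 ± 0.43, unadjusted p = 0.124).

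Ptgs1 and Alox15, enzymes of arachidonic acid metabolism, passed as lower for HFD vehicle against NC and as higher for DPI against vehicle, although the groups overlapped in both comparisons. Ptgs1 had 0.546 and 20.2 CPM in NC, 0.666, 0.363 and 0.248 CPM with vehicle and 21.9, 8.83, 0.186 and 2.65 CPM with DPI, with at most 3 counts in any vehicle library (HFD vehicle against NC unadjusted p = 0.0144, adjusted p = 0.289, and DPI against vehicle unadjusted p = 0.0142, adjusted p = 0.999). Alox15 had 2.19 and 40.3 CPM in NC, 5.77, 2.90 and 0.248 CPM with vehicle and 28.4, 18.002, 9.46 and 4.90 CPM with DPI (unadjusted p = 0.0267 and 0.0388, adjusted p = 0.335 and 0.999). As with Retnla and Mrc1, NC replicate 2 was the high NC library, and NC replicate 1 lay within the vehicle range for both genes. Ccl24, an eosinophil chemokine, also passed for DPI against vehicle, lower (-1.20 ± 0.48, unadjusted p = 0.0271). Ccl22 alone passed for DPI against NC. The summed level of 8 eosinophil markers was 103 and 73.6 CPM in NC, 59.0 to 73.5 CPM with vehicle and 164, 178, 35.1 and 113 CPM with DPI. Of the 6 that were tested, 4 passed the study's threshold, all higher, both for DPI against vehicle and for DPI against NC (Prg2, Epx, Ear1 and Ear6), while Ear2 and Il5ra had negative log2 fold changes in both. Ear2 was lower in every DPI library than in NC (-0.87, unadjusted p = 0.0284), under the 2-fold limit. Prg2, a granule protein of eosinophils, had at most 1.81 CPM in any NC or vehicle library and 79.4, 90.01, 0.371 and 47.8 CPM with DPI. The part of such cells in the values of the IL-4 targets was not tested.

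Of 20 genes of classical activation, the state that interferon-gamma and endotoxin induce, 17 were tested and 3 passed for HFD vehicle against NC. The chemokines Cxcl9 and Ccl5 were higher (2.05 ± 0.66 and 1.48 ± 0.59) and Cd38 was lower (-1.49 ± 0.61). Ccl5 and Il2rg are also genes of lymphocytes, and of 8 tested T and NK cell markers Il2rb and Cd3e, and of 5 B cell markers Cd79b, passed higher for HFD vehicle against NC and for DPI against NC. The B cell sum was 14.9 and 69.1 CPM in NC, 93.4, 179 and 137 CPM with vehicle and 38.2, 15.6, 117 and 405 CPM with DPI, and the T and NK cell sum 68.3 and 257 CPM in NC and 177 to 389 CPM in the HFD libraries. Of 9 tested hepatocyte markers 3 passed lower for each of these comparisons, with a sum of 310 and 458 CPM in NC and 161 to 339 CPM in the HFD libraries. For DPI against vehicle 0 markers of these types passed, and their part in the values was not tested. Cxcl9 alone passed for DPI against vehicle, lower (-1.33 ± 0.51, unadjusted p = 0.0204, adjusted p = 0.999), and its vehicle libraries, at 137, 19.2 and 158 CPM, surrounded the DPI libraries, at 34.9 to 53.7 CPM. Il12a and Ccl5 passed for DPI against NC, both higher, with Il12a at 0 CPM in both NC libraries and at most 4.27 CPM with DPI. The median log2 fold change was 0.55 for HFD vehicle against NC and -0.34 for DPI against vehicle, beside 0.10 and 0.85 for the 8 members. The median of the members was not stable: for DPI against vehicle it was 0.17 without DPI replicate 1, -0.44 with 10 counts required in every library and -0.041 with the endothelial covariate, and for HFD vehicle against NC it was -0.21 with library size scaling and 0.71 without NC replicate 2. Of the members, 5 of 8 had a positive log2 fold change in each of HFD vehicle against NC, DPI against vehicle and DPI against NC, where 51.5%, 53.1% and 52.1% of all genes tested did. With summed counts in place of the fitted values for genes at the floor, the medians of the members were the same.

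Levels can be set side by side between genes only per length, here as CPM per kb of all annotated exons (GENCODE M21). In order of their median over the 9 libraries the members were Chil3 (394), Clec7a (88.5), Tgm2 (20.5), Il4ra (16.5), Clec10a (6.53), Mgl2 (2.01), Retnla (1.13) and Mrc1 (0.886), and the order was the same per kb of the longest coding transcript. Chil3, at 258 to 1213 CPM per kb, did not overlap any other member, and Clec7a, at 55.9 to 133, overlapped only Retnla, which reached 82.9 in NC replicate 2. Tgm2 (4.63 to 51.6) and Il4ra (7.47 to 23.0) overlapped, as did each neighbouring pair from Clec10a (2.63 to 13.005) down to Mrc1. Il4ra and Clec10a also overlapped. Within libraries the order of neighbours was firmer for some pairs: Chil3 lay above Clec7a, Clec7a above Tgm2 and Clec10a above Mgl2 in 9 of 9 libraries, and Il4ra above Clec10a in 8. Tgm2 lay above Il4ra in 6, Mgl2 above Retnla in 4 and Retnla above Mrc1 in 4, so these pairs kept no order across the libraries.

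**Figure D4:**
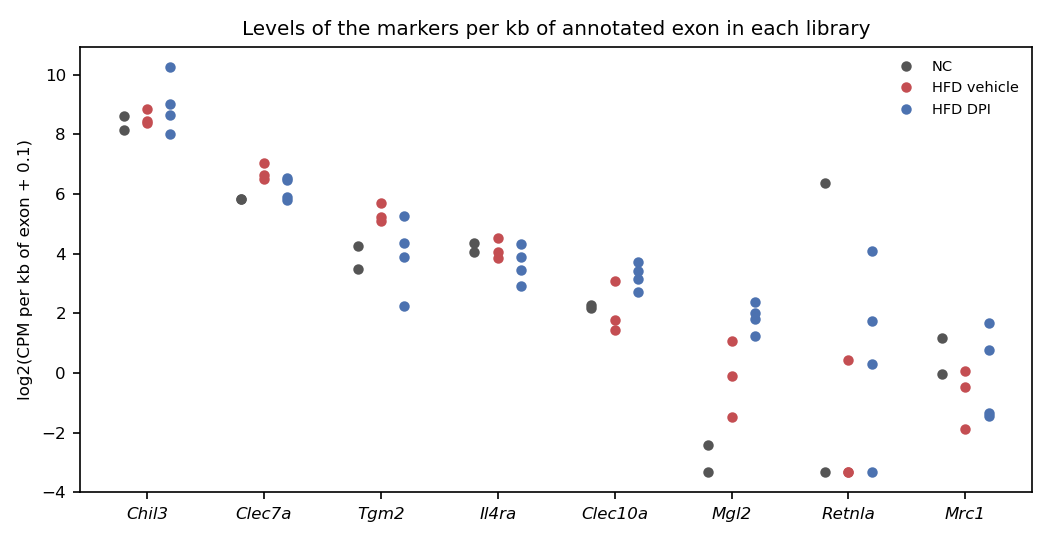
Level of each marker as log2 of CPM per kb of annotated exon plus 0.1 (y axis, log scale) in the 9 libraries, each point a library, with the genes ordered by their median (x axis). Chil3 stood above the others in every library, Clec7a came next in all but NC replicate 2, where Retnla exceeded it, and the points at the bottom are libraries with 0 counts.

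The genes whose pattern over the 9 libraries was most like that of each member, by Pearson's r of log2 CPM among the other 11392 genes tested, are given as a description, since the highest of so many coefficients over 9 points that share their depth is high for any gene. They were Wfdc17, Gm8234 and Hdac4 for Il4ra (r from 0.948 to 0.960) and Ptgs2, Prdm1 and Hbp1 for Tgm2 (0.917 to 0.920). For Retnla they were Wdpcp, A430090L17Rik and Anp32e (0.924 to 0.942), and for Chil3 Serp1, Fam96a and Brk1 (0.876 to 0.938). Among the lectins, they were Rpn1, Ms4a8a and Fbxw4 for Mrc1 (0.937 to 0.958), 2810002D19Rik, Lactb2 and Mms22l for Clec10a (0.909 to 0.958), Shoc2, Pdia5 and Rbm7 for Mgl2 (0.930 to 0.967), and Thumpd2, Pggt1b and 9430008C03Rik for Clec7a (0.888 to 0.932). No member was among the 3 nearest genes of another.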

How the data were processed

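RNA-seq was deposited for 9 libraries of sorted liver macrophages, 2 from NC-fed, 3 from HFD-fed vehicle-treated and 4 from HFD-fed DPI-treated mice. The authors prepared polyA libraries, aligned the reads to mm10 and deposited whole-number counts per gene, without normalization. The study's methods name bowtie2 and RSEM for this step and the submitters' processing notes name TopHat2 and edgeR. Groups came from the sample titles, and every column of the table was mapped. Tests were run in R 4.3.3 with edgeR 4.0.16 (filterByExpr, TMM factors, glmQLFit over the 3 groups, 11393 genes tested, biological coefficient of variation 0.65), and p was adjusted over all genes tested. Alternatives also used DESeq2 1.42.0, and Python 3.11.15, numpy 2.4.6, pandas 2.3.3 and matplotlib 3.10.9 were used for annotation and plots. log2 CPM used a prior count of 2. Positions came from GENCODE M21. Library totals lay between 3534325 and 15585775 counts, and 3 counts per library were taken as the floor. Intervals of summed counts are exact at 95%, and as PCR copies cannot be told from separate molecules here, floors and intervals cover counting error only.

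The 8 members, the gene lists and the rule for naming genes were chosen with earlier results of these data known. From each list, at most 3 genes per comparison past the study's threshold were named, those with the smallest p, beside Nos2, Retnlg, Chil4 and F13a1 and the 3 nearest genes of each member. Clec4f, Timd4, Marco, Lyz2, Csf1r, Ly6c2, Il4, Il13 and Stat6 were named as defining markers or parts of the pathway, and Alox15, Clec1b, Pecam1, Mmp8, Camp, Ltf, Ngp, Ccr7, Dpp4, Il2rb, Cd3e, Cd79b, Emr1, C1qa, C1qc, Ccr2, Id3, Spic, Nr1h3, Prg2, Epx, Ear1, Ear2, Ear6 and Il5ra after their values were seen. The test was checked on simulated counts for 11393 genes, 200 of them with known changes. For HFD vehicle against NC at a log2 fold change of 2, 165 changed and 426 unchanged genes passed the study's threshold. At an adjusted p under 0.05 these were 64 and 7. In every setting more unchanged than changed genes passed the study's threshold. Alternatives changed the scaling (RLE, or library size alone), the filter (none, or a minimum of 10 counts in all libraries), the test (DESeq2, or the likelihood ratio test of edgeR), the libraries (pairs of groups fitted alone, or each library left out), the block (replicate numbers as a term), the genes (Rn45s removed) or the scale (differences of mean log2(CPM + 1)). A result on 1 further marker and 1 related gene is not reported here. Added after seeing the data were thinning to the smallest depth and the endothelial or neutrophil marker sum as a covariate.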

Additional observations from a re-analysis of the deposited data

Results flagged for a closer look

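In the DPI group, the only group of 4 libraries, each member, each gene named from the lists by rule and each sum of cell type markers was compared for a library set apart from the other 3, 42 comparisons in all, of which chance flags about 1 in 20. No member was set apart by this measure. F13a1 was, with 781 CPM in DPI replicate 1 against 173 to 195 CPM in the other 3, a gap of 0.964 of the group's range, past Dixon's limit at 95%. Nos2 was, with 0.306 CPM in DPI replicate 4 and 0 in the other 3, a gap of 1 of the range at a level no greater than the floor.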

How the results depend on the processing

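Of the 24 fold changes of members, 15 kept their direction in every alternative run: for HFD vehicle against NC those of Clec7a, Mgl2 and Tgm2, for DPI against vehicle those of Retnla, Chil3, Il4ra, Clec10a, Clec7a, Mgl2 and Tgm2, and for DPI against NC those of Chil3, Il4ra, Clec10a, Clec7a and Mgl2. The depth limits Retnla and Mgl2, which had groups at or under 3 counts. Where values moved, the cause was not tested unless named.

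The number of members past the study's threshold for DPI against vehicle, 0 as reported, was 1 with RLE scaling, with library size scaling, without Rn45s, with thinned counts and with the neutrophil covariate, 2 without a filter, with 10 counts required in every sample, with DESeq2 and with the likelihood ratio test, and 3 in a fit of the 2 groups alone. It was 0 to 1 over the fits that left out a library, and 1 without vehicle replicate 1 or 3 or DPI replicate 1, 3 or 4. For HFD vehicle against NC the number was 1 with 10 counts required and with the 2 groups alone, and 1 to 4 with a library left out, 1 without NC replicate 2. For DPI against NC it was 0 with 10 counts required, which removes Mgl2 from the test, 2 with the 2 groups alone, 3 with the endothelial covariate and 1 to 2 with a library left out, 2 without NC replicate 1 and without DPI replicate 2 or 3. Members with an adjusted p under 0.05 for DPI against NC numbered 1 with DESeq2 and 1 with the likelihood ratio test.

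The median log2 fold change of the members for DPI against vehicle, 0.85 as reported, was -0.44 with 10 counts required, where fewer members are tested, -0.041 with the endothelial covariate, 0.29 with the neutrophil covariate and 0.17 to 0.999 with a library left out, the lowest without DPI replicate 1. For HFD vehicle against NC, 0.10 as reported, it was -0.21 with library size scaling, 0.87 with the endothelial covariate and 0.037 to 0.71 with a library left out, and for DPI against NC, 0.39 as reported, 0.83 with the endothelial covariate and 0.19 to 0.84 with a library left out, in both cases highest without NC replicate 2.

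Over all genes, those past the study's threshold for HFD vehicle against NC, 1329 as reported, numbered 726 with 10 counts required, 711 with the endothelial covariate and 1027 to 2634 with a library left out. For DPI against vehicle, 324 as reported, they numbered 602 without a filter, 202 with 10 counts required and 187 to 521 with a library left out, and for DPI against NC, 1058 as reported, 527 and 830 to 2626 in the latter fits. With an adjusted p under 0.05 there were 7 for HFD vehicle against NC as reported, 52 without a filter, 312 with DESeq2, 280 with the likelihood ratio test, 0 with the 2 groups alone and 1 with library size scaling, with 10 counts required, with the endothelial covariate and with the neutrophil covariate, and 1 to 568 with a library left out. For DPI against vehicle there were 2 with DESeq2 and 1 with the likelihood ratio test, where 0 passed as reported. For DPI against NC, 1 as reported, there were 22 without a filter, 219 with DESeq2, 186 with the likelihood ratio test, 0 with the 2 groups alone, 4 with thinned counts and 1 to 572 with a library left out. The highest of these counts for the comparisons with NC came without NC replicate 2.

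Directions turned as follows. With library size scaling the median of all genes for HFD vehicle against NC moved from 0.03 to -0.26, of the 1472 genes past the study's threshold 539 were higher and 933 lower, beside 801 and 528 as reported, and the log2 fold changes of Chil3 and Clec10a turned to -0.11 and -0.31. For DPI against vehicle this scaling moved the median of all genes to 0.12, with 196 of 297 higher beside 171 of 324 as reported, and for DPI against NC to -0.17, with 546 higher and 624 lower beside 711 and 347. As differences of mean log2(CPM + 1), Clec10a came to -0.12 for HFD vehicle against NC, and with thinned counts Il4ra came to 0.0045. With the endothelial covariate Mrc1 turned to 1.99 for HFD vehicle against NC, to -0.79 for DPI against vehicle and to 1.201 for DPI against NC, where Tgm2 turned to -0.44. Over the fits that left out a library, the log2 fold changes for HFD vehicle against NC that changed sign ranged from -0.048 to 0.46 for Chil3, -0.20 to 0.13 for Il4ra, -10.39 to 3.77 for Retnla and -0.58 to 0.34 for Clec10a. For DPI against NC they ranged from -1.10 to 0.60 for Mrc1, -4.81 to 7.44 for Retnla and -0.18 to 0.83 for Tgm2, and the positive value of Retnla for HFD vehicle against NC came without NC replicate 2.

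The replicate numbers do not pair the libraries: deviations from the group means of same-numbered libraries correlated at -0.02 to 0.08. With the replicate block the members past the study's threshold numbered 2 for each of the comparisons: Retnla and Clec7a for HFD vehicle against NC, where Mgl2 and Tgm2 no longer passed (unadjusted p = 0.0526 and 0.0506), Retnla and Tgm2 for DPI against vehicle, and Mgl2 and Retnla for DPI against NC. Genes with an adjusted p under 0.05 numbered 0 for each. With the block, Clec10a turned to -0.22 for HFD vehicle against NC, and Mrc1 and Tgm2 to 0.046 and -0.46 for DPI against NC.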
